A study of Homo sapiens with 28 samples.

Results

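CPSF6, a subunit of the pre-mRNA cleavage factor CFIm, was knocked down in HEK293 cells, a human embryonic kidney line, and transcript levels were read on 1 array of the 28 in the series. That array was set beside the other 13 arrays of the first of 2 series, and a gene was counted when its level lay outside the range of all 13. Of 18417 genes, 2574 did, 1119 of them below the range (6.08%) and 1455 above it (7.90%). The cells of all 14 arrays carried a lentivirus that expresses a short hairpin RNA from the U6 promoter, and were kept for 6 days under 2 µg/ml puromycin. The 13 other arrays comprised 12 with hairpins against CLP1, DDX5, DDX17 or HNRNPL, 3 different hairpins for each, and 1 with a control hairpin against the bacterial gene lacZ. CPSF6 was targeted by a single hairpin, so an effect of losing CPSF6 and an effect of that hairpin's sequence cannot be told apart. With 1 array there was no test: every value below is a description of this array, and the spread given beside it is the pooled SD between the 3 hairpins of a target (8 degrees of freedom). The labels do not say whether the CPSF6 and lacZ arrays came from cultures grown side by side with the others.

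CFIm helps to choose where a pre-mRNA is cut and polyadenylated. NUDT21 binds UGUA motifs upstream of the poly(A) site as a dimer and recruits CPSF6 or its paralog CPSF7, whose arginine- and serine-rich regions contact the cleavage machinery. Loss of NUDT21 or CPSF6 is known to shift many transcripts from distal to proximal poly(A) sites, which shortens their 3′ UTRs, and the study used the CPSF6 hairpin as a control for changes in 3′ UTR length. CPSF6 is also known as a host factor that HIV-1 capsids bind. The values here are levels of whole transcripts, and the probe-level ratio of distal to whole-transcript signal was not analysed here. In bulk RNA, fewer cells with a transcript and less transcript per cell cannot be told apart.

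Levels are log2 RMA intensities, so a difference of 1 is a doubling, and levels are not compared between genes. DDX5 hairpin 3 stood apart, with 11244 genes outside the range of the other arrays, against 606 to 3508 in the other 11 hairpin arrays, 3308 in the lacZ array and 2574 in the CPSF6 array. Its median SD of differences from the other arrays was 0.65, against 0.27 to 0.43 in the other 11 hairpin arrays and 0.32 in the CPSF6 array. Without it, 1324 genes lay below the range (7.19%) and 1618 above (8.79%), and the member counts that this changed are given beside the main ones. HNRNPL hairpin 3 then had 4281 genes below the range of the others and 3726 above, so it stood apart too. No count was made with both of these arrays left out. Of 10 HEK293 markers measured, none lay outside the range. In the CPSF6 array the mesenchymal filament gene VIM was at 10.02 and the cadherin gene CDH2 at 9.19. The neurofilament gene NEFL was at 10.37, with 11.68 in lacZ. The dimmest of the 10 were NEFM at 5.77 and PAX2 at 6.11, beside a median of 6.49 over all genes in that array. None of 5 blood or 6 keratinocyte markers lay outside the range either, and the leukocyte marker PTPRC was at 3.66. Of 6 hepatocyte markers, ALB lay above and TF below by 0.01 each.

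The targeted transcript was lower in the CPSF6 array than in any other first-series array. CPSF6 (probeset 7957008, chromosome 12) measured 8.65 there, 10.01 with the lacZ hairpin, and 9.24, 9.95 and 10.10 at the lowest, median and highest of the 12 hairpin arrays. The 2 arrays nearest to it were DDX5 hairpin 3 at 9.24 and HNRNPL hairpin 3 at 9.51, and the other 10 hairpin arrays held at least 9.88. The CPSF6 array thus lay 0.60 under the lowest other array, or 0.87 under it without DDX5 hairpin 3, beside a spread of 0.26 between hairpins. On the linear scale its intensity of 401 was 38.8% of the 1034 in the lacZ array.

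The partners of CPSF6 did not leave the range. NUDT21, which carries the UGUA-binding site, measured 10.41, with 10.09 in lacZ and 9.08, 10.28 and 10.78 at the lowest, median and highest of the hairpin arrays. CPSF7, the alternative large subunit, measured 8.20, with 7.96 in lacZ and a hairpin range of 7.88 to 8.66. All 16 core cleavage and polyadenylation genes also lay inside. Among them were CPSF3, the endonuclease (8.96, range of the hairpin arrays 7.80 to 9.13), CSTF2, which binds downstream GU-rich sequence (6.96, 6.53 to 7.74), and PAPOLA, the main nuclear poly(A) polymerase (10.37, 9.11 to 10.51). CSTF2 alone of the 16 passed out of the range when DDX5 hairpin 3 was left out, 0.09 under it.

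**Figure D1:**
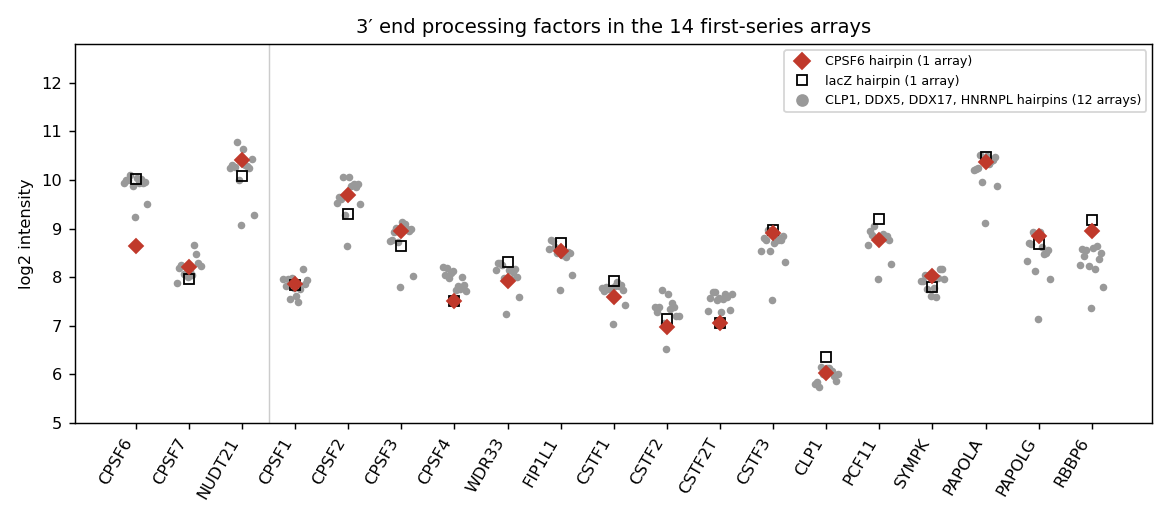
Level (log2 intensity, vertical axis) of CPSF6, CPSF7 and NUDT21, left of the line, and of 16 core cleavage and polyadenylation genes, right of it, in the 14 first-series arrays. Red diamonds are the CPSF6 hairpin array, open squares the lacZ array and grey points the 12 other hairpin arrays: CPSF6 at 8.65 is the only gene of the 19 whose diamond lies outside the other arrays.

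Large gaps were mostly upward. The CPSF6 array lay at least 0.5 above the range for 115 genes (0.624%) and at least 0.5 below it for 10 (0.0543%), and at least 1 above it for 20 (0.109%) and 1 below it for 0. Without DDX5 hairpin 3 the counts at 0.5 were 119 above (0.646%) and 14 below (0.0760%), and against the 12 hairpin arrays alone they were 158 and 16. The same count made for each array in turn gave 136 above and 63 below for lacZ, 505 and 962 for DDX5 hairpin 3, and at most 22 above and 12 below for the other 11 hairpin arrays. With DDX5 hairpin 3 left out, HNRNPL hairpin 3 had 107 above and 524 below, and lacZ 145 and 108. The range for each hairpin array also held other hairpins against its own target, which the CPSF6 and lacZ arrays lacked. At the limit of 0.5, TCAF1 was just counted above (0.505) and SULT1C2 was not (0.494), while HOXB6 was just counted below (0.501) and ITPA was not (0.498). The genes high in the CPSF6 array were dim elsewhere: over the 115, the median level in the other arrays was 5.14, against 6.50 for all genes.

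The gene furthest above the range encodes a secreted peptide. NTS, the precursor of the gut and brain peptide neurotensin (probeset 7957458), measured 7.29, against 4.58 in lacZ and 3.81, 4.32 and 5.46 at the lowest, median and highest of the hairpin arrays. It lay 1.83 above every other array, beside a spread between hairpins of 0.28, and was 6.51-fold the lacZ intensity. SPX, which encodes the peptide hormone spexin, measured 6.79, with 4.97 in lacZ and 4.22, 4.70 and 5.24 in the hairpin arrays, a gap of 1.55. NRG4, a ligand of the receptor ERBB4, measured 7.20, with 5.54 in lacZ and 4.82, 5.37 and 5.61 in the hairpin arrays, a gap of 1.59. For all 3 genes the CPSF6 array was the only one of the 14 with a level over 6.

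The other genes named for the largest upward gaps had varied functions. IFI44L, an interferon-stimulated gene, measured 6.77, with 5.01 in lacZ and 4.15, 4.47 and 4.91 in the hairpin arrays, a gap of 1.76. NCKAP1L, the blood-cell form of a WAVE complex subunit that drives actin branching, measured 7.36, with 4.94 in lacZ and 4.55, 5.25 and 5.90 in the hairpin arrays, a gap of 1.46. GRAMD1C, of a family that carries cholesterol to the endoplasmic reticulum, measured 8.01, with 6.28 in lacZ and 5.41, 6.29 and 6.66 in the hairpin arrays, a gap of 1.35. ALDH1A1, which makes retinoic acid from retinaldehyde, lay at 6.21 against 4.45 in lacZ, with a gap of 1.10. FRY, a microtubule-binding protein gene (gap 1.22), FHAD1, which encodes a forkhead-associated domain protein (1.06), C2orf66 (1.57), the zinc finger gene ZNF596 (1.04) and the zinc finger pseudogene ZNF876P (1.53) completed the 12. None of the 12 gaps changed by leaving out DDX5 hairpin 3, and all 12 also lay above the range of the 27 other arrays once all 28 were quantile normalized together. All but GRAMD1C, 11 genes, had a mean level under 6 over the 14 arrays, and met the level asked for naming only through the CPSF6 array.

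**Figure D2:**
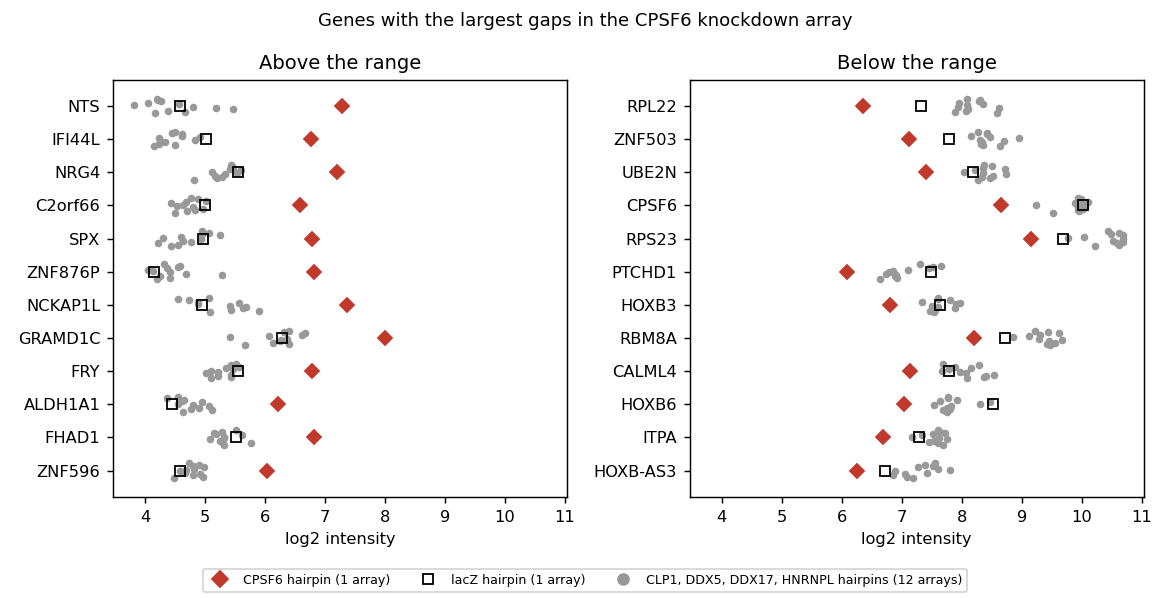
Level (log2 intensity, horizontal axis) of the 12 genes with the largest gaps above the range (left) and the 12 below it (right), chosen among genes that reach 6 in the CPSF6 array or in the median of the others, small RNA genes left out. Red diamonds are the CPSF6 array, open squares lacZ and grey points the 12 other hairpin arrays; the upward gaps run from 1.04 to 1.83 and the downward ones from 0.47 to 0.96.

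Downward gaps were smaller, and CPSF6 itself was among the 4 largest. RPL22, a protein of the large ribosomal subunit (probeset 7911989), measured 6.35, against 7.31 in lacZ and 7.89, 8.10 and 8.63 at the lowest, median and highest of the hairpin arrays, a gap of 0.96. RPS23, of the small subunit, measured 9.15, with 9.69 in lacZ and 9.76, 10.56 and 10.69 in the hairpin arrays, a gap of 0.54. The reference lists 22 pseudogenes by symbol for RPL22 and 10 for RPS23, whose near-identical sequence may share probes, so these values are uncertain. In both genes, lacZ was the next lowest array.

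ZNF503, a zinc finger repressor of the developing brain and limb, measured 7.13, with 7.79 in lacZ and 8.15, 8.38 and 8.95 in the hairpin arrays, a gap of 0.66. That gap was in the brighter of 2 ZNF503 probesets, and the other lay inside the range, 4.95 within 4.83 to 6.13. UBE2N, the ubiquitin-conjugating enzyme that builds lysine-linked signalling chains, measured 7.40, with 8.18 in lacZ and 8.03, 8.36 and 8.73 in the hairpin arrays, a gap of 0.64. RBM8A, a core subunit of the exon junction complex, measured 8.20, with 8.73 in lacZ and 8.85, 9.43 and 9.67 in the hairpin arrays, a gap of 0.53. Its second probeset gave a like gap, 7.24 against a range of 7.76 to 8.89. PTCHD1, a patched-domain membrane protein gene (gap 0.54), CALML4, a calmodulin-like gene (0.53), and ITPA, which clears inosine triphosphate (0.50), were also among the 12. The remaining 3 were HOXB3, HOXB6 and HOXB-AS3, from 1 homeobox cluster. Against those 27 arrays, PTCHD1, HOXB3 and CALML4 lay inside the range.

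HOX genes, which encode the homeobox factors that set position along the body axis and stand in 4 clusters, were low together in the CPSF6 array. Of 27 HOX genes measured, picked as a group after their values were seen, 15 lay below the range and 0 above, beside 6.08% and 7.90% of all genes. The count was 15 also without DDX5 hairpin 3. It was 7 against the 27 other arrays of both series, beside 1047 of all 18417 genes. The median difference from the median of the other arrays was -0.44, against -0.02 over all genes, and 25 of the 27 were lower than that median. The same median in the other 13 arrays, each against the rest, ran from -0.23 in DDX5 hairpin 1 to 0.44 in DDX5 hairpin 3, and was 0.07 in lacZ.

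The HOXB cluster on chromosome 17 held the largest of these gaps. HOXB3 measured 6.80, with 7.63 in lacZ and 7.33, 7.60 and 7.96 at the lowest, median and highest of the hairpin arrays, a gap of 0.54. HOXB6 measured 7.04, with 8.51 in lacZ and 7.54, 7.77 and 8.48 in the hairpin arrays, a gap of 0.50. HOXB-AS3, a noncoding RNA of the cluster, measured 6.25, with 6.72 in lacZ and 6.86, 7.32 and 7.79 in the hairpin arrays, a gap of 0.47. These 3 lie among neighbours that were low too: HOXB8 was 0.42 under the range, HOXB5 0.34 and HOXB2 0.05, and HOXB4 only just passed it. HOXB1, HOXB7, HOXB9 and HOXB13 lay inside the range, HOXB9 at 8.78 beside 8.78 in lacZ. HOXB-AS3 overlaps HOX genes on the opposite strand, and whether the labelled signal keeps the strand is not given in the sources used here.

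In the HOXD cluster, 5 of 9 genes lay below the range. HOXD11 measured 7.71, with 8.28 in lacZ and 8.06, 8.28 and 8.48 in the hairpin arrays, a gap of 0.35 beside a spread of only 0.08. HOXD4 lay 0.31 under the range, HOXD8 0.27 and HOXD10 0.18. In the HOXC cluster it was 4 of 7, with HOXC8 at 6.37 against 7.02 in lacZ, a gap of 0.28, and HOXC5 with a gap of 0.26. The single HOXA gene measured, HOXA2, lay inside the range at 6.94. The DLX and MSX homeobox genes, which pattern the forebrain, branchial arches and limbs and were also picked after their values were seen, had 5 of 8 below and 0 above, beside 6.08% and 7.90% of all genes. DLX1 measured 5.87 (gap 0.46), DLX2 6.76 (gap 0.41) and MSX2 6.17 (gap 0.35).

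**Figure D3:**
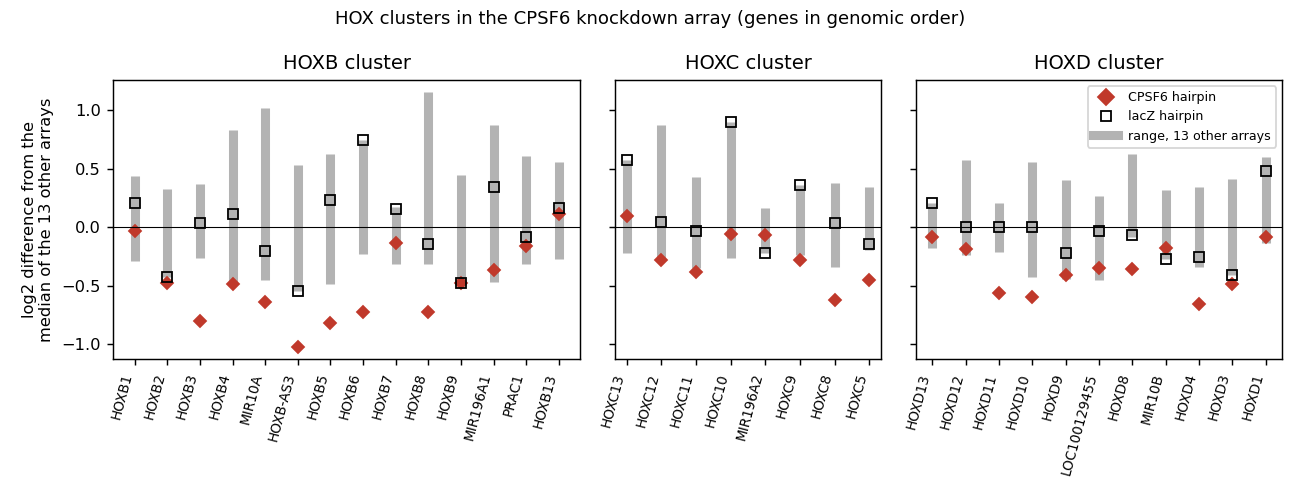
Difference from the median of the 13 other arrays (log2, vertical axis) of each gene measured within the HOXB, HOXC and HOXD clusters, in the order of the reference annotation. Red diamonds are the CPSF6 array, open squares lacZ and grey bars the range of the 13 other arrays: diamonds lie under the bars for 8 of 14 HOXB, 4 of 8 HOXC and 5 of 11 HOXD positions.

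MicroRNA genes stand inside these clusters and were read by probesets of their own. Mature products of 2 such genes are shown beside that of MIR375, the microRNA gene with the largest gap. Capitals mark the seed, bases 2 to 8, which pairs with target mRNAs. The sequences are those of RefSeq on GRCh38.p14.
miR-10a-5p: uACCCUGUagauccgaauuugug
miR-196a-5p: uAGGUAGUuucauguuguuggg
miR-375-3p: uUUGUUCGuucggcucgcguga
The first is encoded at chr17:48579904-48579926 on the minus strand, inside the HOXB cluster. The second is at chr17:48632532-48632553 on the minus strand, between HOXB9 and HOXB13. The third is at chr2:219001648-219001669 on the minus strand, outside any HOX cluster. The 3 seeds differ. The probeset of MIR10A measured 3.91 in the CPSF6 array, with 4.35 in lacZ and 4.10, 4.61 and 5.57 in the hairpin arrays, a gap of 0.19. MIR196A1 lay inside the range at 5.58. MIR375 had a gap of 0.35, at 5.58 against 6.08 in lacZ and 5.93, 6.17 and 7.33 in the hairpin arrays. These probesets lie on precursor sequence, and they say nothing about the amount of mature microRNA.

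Genes of the MHC class II pathway, which presents extracellular peptides to T cells, were high in the CPSF6 array. The group holds more than the presenting chains: CIITA, the HLA-DM and HLA-DO genes and HLA-DPB2 are in it. Of 11 measured, a group also picked after its values were seen, 7 lay above the range and 0 below, beside 7.90% and 6.08% of all genes, and the count was 8 without DDX5 hairpin 3. HLA-DPA1 measured 9.54, with 8.08 in lacZ and 7.13, 8.51 and 8.71 at the lowest, median and highest of the hairpin arrays, a gap of 0.83 beside a spread of 0.51. HLA-DRB5 measured 8.86, with 7.65 in lacZ and 6.35, 7.58 and 8.18 in the hairpin arrays, a gap of 0.68. HLA-DRB5 shares sequence with other DRB genes, so its probes may read them too. HLA-DOB lay 0.58 above the range, HLA-DPB1 0.23 and HLA-DMB 0.22, while CIITA, the factor that switches class II genes on, was inside it at 5.47. Of the 8 class I and peptide-loading genes, PSMB9, an immunoproteasome subunit (gap 0.57), and B2M, the class I light chain (gap 0.15), lay above, and PSMB10 lay below by 0.01.

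Interferon-stimulated genes split in both directions. Of 24 measured, 7 lay above the range (29.2%) and 4 below (16.7%), with a median difference of 0.17, beside 7.90% and 6.08% of all genes. IFI6, which acts in mitochondria, measured 8.22, with 7.57 in lacZ and 6.83, 7.23 and 7.47 in the hairpin arrays, a gap of 0.65. IFI44, the neighbour of IFI44L on chromosome 1, measured 4.56, with 3.61 in lacZ and 3.60, 3.74 and 3.92 in the hairpin arrays, a gap of 0.64. IFIH1, a sensor of double-stranded RNA, lay 0.26 above and the translation inhibitor IFIT1 0.24. IFI27 lay 0.15 below the range, MX2 0.09, OAS1 0.03, and the ubiquitin-like modifier ISG15 only just, at 6.35. Most members were dim: of the 7 with a mean level of at least 6, only IFI6 lay above the range, and their median difference was -0.12.

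**Figure D4:**
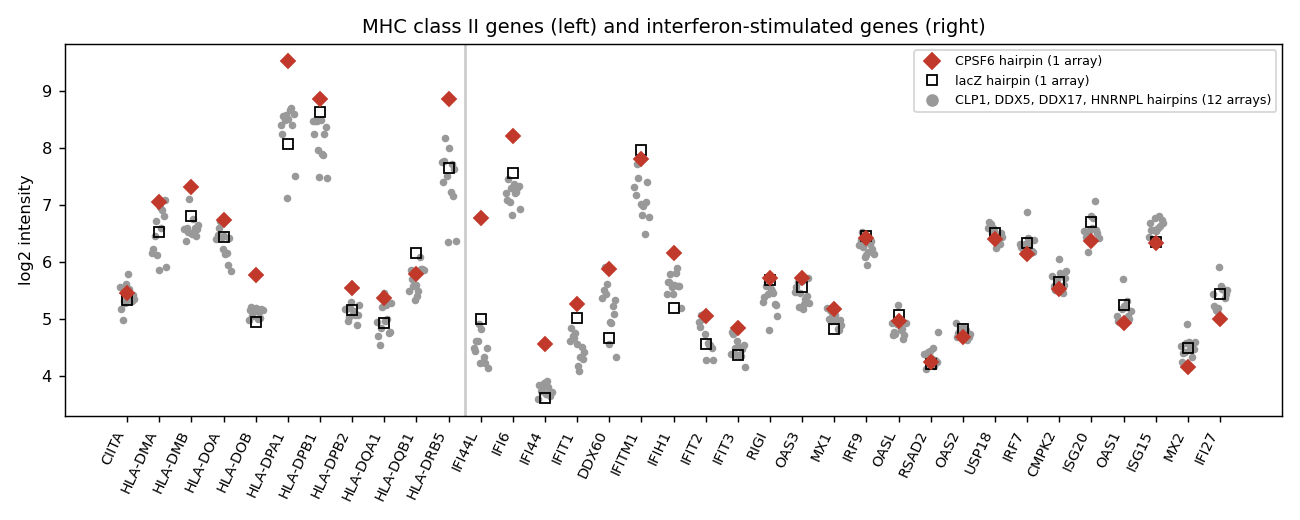
Level (log2 intensity, vertical axis) of 11 MHC class II genes, left of the line, and of 24 interferon-stimulated genes, right of it, ordered by their difference in the CPSF6 array. Red diamonds are the CPSF6 array, open squares lacZ and grey points the 12 other hairpin arrays: HLA-DPA1, HLA-DRB5, IFI44L and IFI6 stand clear of the other arrays, while the genes on the right edge lie at or under them.

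Regulators of poly(A) sites lay above the range at a share near that of all genes. Of 22 regulators of site choice and termination, 2 lay above it (9.09%) and 0 below, beside 7.90% and 6.08% of all genes. NOVA1, a neuronal splicing factor, was at 6.20 with 5.54 in lacZ and 5.10, 5.70 and 5.94 in the hairpin arrays (gap 0.25). PABPC1, the cytoplasmic poly(A)-binding protein, was at 11.60 with 11.37 in lacZ and 10.80, 11.22 and 11.39 in the hairpin arrays (gap 0.21). Without DDX5 hairpin 3, 4 more lay below: ELAVL1, HNRNPF, HNRNPH1 and TARDBP, by 0.18 at most. Of the 5 measured genes out of 9 listed for CFIm-dependent poly(A) sites, DICER1, the microRNA-processing nuclease, lay 0.13 above the range at 10.04, and VMA21, an assembly factor of the vacuolar proton pump, only just passed it at 7.91. CCND1, TIMP2 and SDC2 lay inside, and the levels say nothing of which poly(A) site was used. PPIA, cyclophilin A, which like CPSF6 binds HIV-1 capsids, measured 7.91, with 9.24 in lacZ and 8.23, 9.12 and 9.50 in the hairpin arrays, a gap of 0.33, or 0.96 without DDX5 hairpin 3. The reference lists 90 PPIA pseudogenes by symbol, so this value is uncertain. PPIA was 1 of 7 genes listed as nuclear import and capsid cofactors of CPSF6 (14.3% below, beside 6.08% of all genes), and the other 6 lay inside the range.

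Single members of other RNA lists lay outside. HNRNPM, a paraspeckle and splicing protein gene, was 0.12 under the range at 9.53, beside a spread of 0.07, and EXOSC4, of the exosome core, was 0.31 under it at 6.63, beside a spread of 0.10. They were 1 of 8 paraspeckle (12.5%) and 1 of 15 nuclear exosome genes (6.67%), beside 6.08% of all genes below. Integrator had 1 of 14 on each side (7.14%), and SR protein genes had 1 of 12 above (8.33%). DCP1B, of the decapping complex, was 0.11 above the range and the exonuclease gene XRN1 0.07. These were 2 of 21 decay genes (9.52%, beside 7.90% of all genes above), and 0 of the 21 lay below, or 1 without DDX5 hairpin 3. Of 9 factors that form histone mRNA ends, 0 lay outside, or 1 below without DDX5 hairpin 3. Of 49 replication-dependent histone genes, 4 lay above (8.16%) and 1 below (2.04%), beside 7.90% and 6.08% of all genes. H2BC21 was at 7.66 against 7.55 in lacZ (gap 0.12) and H1-5 at 4.69 (gap 0.11).

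Mitotic genes lay mostly above the median of the other arrays and respiratory chain genes mostly below it. Of 28 genes of G2 and M phase, 6 lay above the range (21.4%, beside 7.90% of all genes) and 0 below, with a median difference of 0.23 and 26 members above the median of the other arrays. PLK1, the mitotic kinase, measured 9.46, with 9.07 in lacZ and 8.08, 8.42 and 8.77 in the hairpin arrays, a gap of 0.39. HMMR, a spindle protein gene, had a gap of 0.20, the cytokinesis factor ECT2 0.18 and the spindle assembly factor TPX2 0.07. lacZ was high too: the median difference of the list from lacZ was -0.05. When lacZ was left out, 11 members lay above the 12 hairpin arrays, beside 1867 of all 18417 genes. Against all other arrays of both series it was 2 members, beside 988 of all genes.

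Of 66 oxidative phosphorylation genes, 10 lay below the range (15.2%, beside 6.08% of all genes) and 1 above, with a median difference of -0.25 and 58 members under the median of the other arrays. The count below was 17 without DDX5 hairpin 3 and 18 without lacZ, beside 1324 and 1438 of all 18417 genes. ATP5MC3, of the ATP synthase ring, measured 6.10, with 6.38 in lacZ and 6.32, 6.51 and 6.79 in the hairpin arrays, a gap of 0.22. NDUFB8, of complex I, measured 8.39, with 8.60 in lacZ and 8.64, 8.82 and 9.09 in the hairpin arrays, a gap of 0.21. ATP5ME (gap 0.18) and NDUFA13 (0.17) were next. The median difference of the list from lacZ was 0.05.

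The other stress and growth lists had at most 3 members on either side of the range of the 13 arrays. Over all genes, 6.08% lay below it and 7.90% above. Ribosomal protein genes had 3 of 58 below (5.17%), RPL22, RPS23 and FAU (gap 0.15), and 1 above, RPL14 (0.07). The S phase list had 2 of 26 below (7.69%), FEN1 and UHRF1. These were 5 ribosomal protein and 3 S phase genes without DDX5 hairpin 3. Among 15 heat shock genes, the chaperone gene DNAJB4 lay 0.57 above the range, at 8.05 against 7.46 in lacZ. In the same list 3 genes lay below the range (20%), led by HSPE1 (gap 0.14), but 6 lay below without DDX5 hairpin 3. p53 targets had 2 of 26 below (7.69%), led by TRIAP1 (gap 0.19), or 3 without DDX5 hairpin 3, and 1 above, MDM2 (0.05). In the list of TGFβ and matrix genes, POSTN, a matrix protein gene, lay 0.67 above the range at 4.82 and the collagen cross-linking enzyme gene LOX 0.41 at 6.74, and the inhibitor gene SMAD7 lay 0.14 below. POSTN and LUM were the 2 of 7 fibroblast markers above the range (28.6%), while COL1A1, COL1A2 and COL3A1 were inside. Without DDX5 hairpin 3, DCN made it 3. The median level of the fibroblast list was 5.13 here and 4.94 to 5.60 in the other arrays. Its part in the other upward gaps was not tested. In the growth factor feedback list, EGR1 lay 0.24 above at 8.28, and in the cholesterol synthesis list PMVK lay 0.09 below at 5.89 and HMGCS1 0.02 below.

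Small RNA genes lay below the range of the 13 arrays or inside it. Of 115 box C/D snoRNA genes, whose products guide RNA methylation, 13 lay below (11.3%) and 0 above, or 2 above without DDX5 hairpin 3. Of 77 H/ACA and Cajal body RNA genes, which guide pseudouridylation, it was 9 (11.7%) and 0, and of 173 microRNA genes 19 (10.98%) and 0, or 20 and 0 without DDX5 hairpin 3. Over all genes, 6.08% lay below and 7.90% above. SNORD75 measured 5.77, with 6.13 in lacZ and 6.17, 6.68 and 7.09 in the hairpin arrays, a gap of 0.36. SNORA60 had a gap of 0.26 and SCARNA12 one of 0.20, at 10.50. The median difference of the H/ACA list was -0.34 from the other arrays and 0.19 from lacZ. So lacZ was lower still in most of these genes, and without lacZ the count below was 26, beside 1438 of all 18417 genes.

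For genes far higher in lacZ than in every other hairpin array, the CPSF6 array mostly lay between them. Earlier results of the lacZ and hairpin arrays, not of the CPSF6 array, had listed 10 genes as lower with hairpins than with lacZ and 8 as higher. All 10 of the first set lay under lacZ and above every one of the 12 hairpin arrays. Of the 34 genes whose lacZ level exceeded every hairpin array by more than 1, these 10 among them, 26 (76.5%) held that place. With lacZ above every hairpin array by any amount, it was 412 of 2063 genes (20.0%). With lacZ below every hairpin array, 319 of 1715 genes (18.6%) lay between, and 5 of 10 where lacZ was lower by more than 1. All these genes were picked by their level in the lacZ array, and a larger cut leaves a wider interval to fall in. The share between can therefore rise with the cut through the choice alone, and these shares are no test. RFPL4A measured 7.95, with 10.29 in lacZ and 4.87, 5.44 and 7.32 at the lowest, median and highest of the hairpin arrays. ERRFI1, which restrains signalling by the EGF receptor, measured 8.80, with 10.39 in lacZ and 6.88, 8.04 and 8.39 in the hairpin arrays. INSIG1, which holds back cholesterol synthesis, measured 8.34, with 9.47 in lacZ and 6.99, 7.67 and 8.28 in the hairpin arrays. The median of these 10 in the CPSF6 array was 1.46 lower than in lacZ.

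Of the 8 genes higher with hairpins, 7 lay between lacZ and the median of the hairpin arrays, but only 1 lay between lacZ and every hairpin array. NUPR1, a stress-induced chromatin protein gene, measured 8.22, with 5.90 in lacZ and 8.03, 8.72 and 9.43 in the hairpin arrays, so it reached the hairpin range. GDF15, a stress-induced growth factor, measured 6.72, with 5.94 in lacZ and 6.95, 7.78 and 8.22 in the hairpin arrays, so it did not. ATP6V0D2, a proton pump subunit gene, measured 3.69, under lacZ at 3.88 and all hairpin arrays. The list of 36 ATF4 and unfolded protein response genes had a median difference of 0.51 from lacZ and of -0.19 from the other arrays, the latter 0.20 when all 28 arrays were used. Single members outside the range were PPP1R15A, 0.06 under it, and HSPA5, only just above, and 3 lay below without DDX5 hairpin 3.

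**Figure D5:**
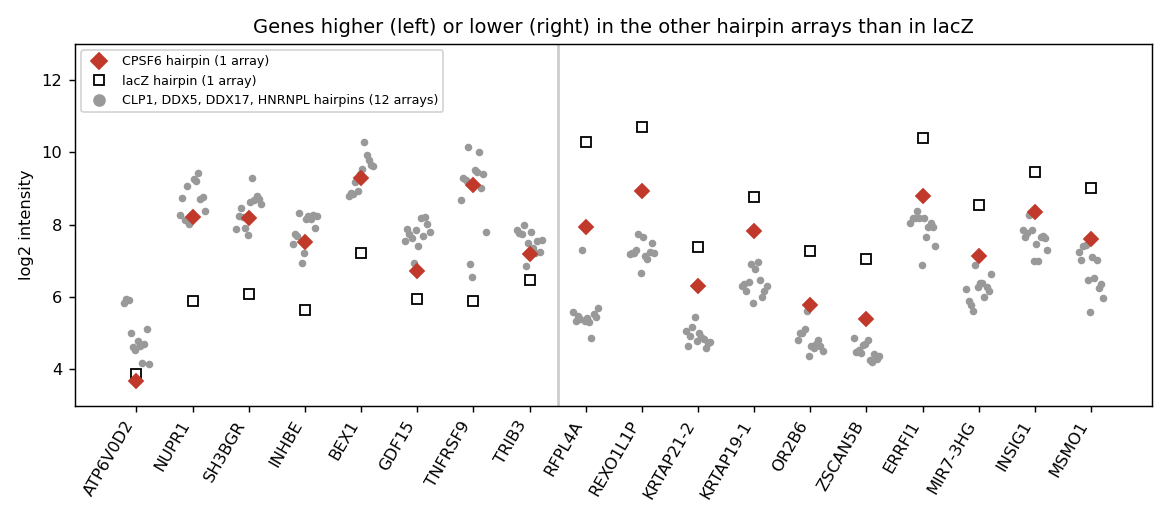
Level (log2 intensity, vertical axis) of 8 genes listed as higher in the other hairpin arrays than in lacZ, left of the line, and of 10 listed as lower, right of it. Red diamonds are the CPSF6 array, open squares lacZ and grey points the 12 other hairpin arrays: on the right all 10 diamonds lie between the square and the points, and on the left ATP6V0D2 is the only one under its square.

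By the whole profile, lacZ stood among the hairpin arrays in its distance from the CPSF6 array. The SD of the differences over genes was 0.33 from lacZ and 0.29 to 0.52 from the 11 hairpin arrays other than DDX5 hairpin 3, lowest for HNRNPL hairpin 2. From DDX5 hairpin 3 it was 0.70. Pearson's r across genes, which are not independent replicates, was 0.98 with lacZ and 0.91 to 0.99 with the hairpin arrays. Against lacZ, 184 genes were over 1 log2 unit higher (0.999%) and 54 over 1 lower (0.293%).

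The study listed genes with proximal poly(A) sites that it called Aire-sensitive in mouse thymic epithelium. Its other set, defined by Aire transfection of HEK293 cells, was not used here. Matched by symbol, the listed mouse genes had 74 of 544 measured members above the range and 27 below it, with a median difference of 0.00. These were 13.6% and 4.96%, beside 7.90% and 6.08% of all genes, and without DDX5 hairpin 3 the counts were 87 and 28. Of the 142 with a mean level of at least 6, 25 lay above, beside 862 of all 11072 such genes. Against all 27 other arrays 42 of the 544 did, beside 988 of all 18417 genes. NTS led them, followed by RGS4, a regulator of G protein signalling (gap 0.92), APOD, a lipocalin (0.88), and RAB3C, of synaptic vesicles (0.77). Among symbol families, 12 of 361 olfactory receptor genes lay above (3.32%) and 33 below (9.14%), with OR2J3 furthest out (gap 0.88). Of 494 ZNF genes, 21 lay above (4.25%) and 30 below, the latter at 6.07% like the 6.08% of all genes. Of 391 long noncoding RNA genes known by symbol, 17 lay above (4.35%), led by HPN-AS1 (gap 0.84), and 38 below (9.72%). Of 42 protocadherin genes, 3 lay above (7.14%), led by PCDH18 (gap 0.32), and 2 below (4.76%). Without DDX5 hairpin 3 these families moved by at most 4 genes, to 34 ZNF genes below.

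Genes above the range were longer than those below it. The median gene length on GRCh38.p14, introns included, was 55.6 kb for the genes above, 10.8 kb for those below and 24.5 kb for all. Among protein-coding genes split into 5 groups of equal size by length, 10.8% lay below and 3.22% above in the shortest group, and 3.37% and 14.7% in the longest. The median difference in the CPSF6 array ran from -0.08 in the shortest group to 0.07 in the longest, a step of 0.15. The same step was 0.17 in CLP1 hairpin 2, 0.18 in CLP1 hairpin 3 and 0.17 in DDX5 hairpin 1. It was -0.02 in lacZ, -0.38 in HNRNPL hairpin 3 and -0.65 in DDX5 hairpin 3, the array that sets many edges of the range. The step of the CPSF6 array was thus smaller than that of 3 hairpin arrays. Without DDX5 hairpin 3 the longest group held 15.7% above and 3.99% below.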

How the data were processed

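Transcript levels were measured on Affymetrix Human Gene 1.0 ST arrays. The deposited values are probeset intensities on the linear scale, which the authors made with RMA in aroma.affymetrix (background subtraction, quantile normalization and summary over probes). The table held 33252 probesets in 28 arrays. The 19460 with exactly 1 gene symbol in the platform annotation were kept, 1754 with several and 12038 with none were not, and the probeset with the highest mean stood for each of 18417 genes. Of these, 18389 matched the reference by Entrez ID and 0 symbols differed. Intensities were taken to log2 without a pseudocount or a filter. The array medians in the first series were 61.5 to 74.0, and the number of arrays limits the precision. Groups came from the labels.

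A gene's gap is the distance of the CPSF6 array beyond the lowest or highest of the 13 other first-series arrays. Named genes are CPSF6, CPSF7 and NUDT21, the 12 largest gaps each way among genes that reach 6 in the CPSF6 array or in the median of the others (small RNA genes left out), up to 4 small RNA genes each way, and up to 4 members of each list outside the range. Genes named beyond these were chosen after their values were seen. Host genes of small RNAs were not counted as small RNA genes. The 42 gene lists were written from general knowledge, from symbol families or, for the Aire-sensitive genes, from the study. The comparison and the lists were chosen with earlier results of these data known, and 7 further lists (HOX, DLX and MSX, and MHC genes) after the values were seen. Alternatives were median centring, quantile normalization over 14 or all 28 arrays, a range without lacZ, a pseudocount of 16, a minimum mean of 6, the mean over probesets, and leaving out each array. The calculation was tested on simulated data. Python 3.11.15, numpy 2.4.6, pandas 2.3.3 and matplotlib 3.10.9 were used. The scans were not used here.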

Additional observations from a re-analysis of the deposited data

How the results depend on the processing

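CPSF6 stayed below the range in every alternative run. Its signed gap ran from -0.87 (without DDX5 hairpin 3) to -0.60 when arrays were left out in turn. It was -1.13 after quantile normalization over the 14 arrays, -0.92 against the 27 others (among them a second-series lacZ array that differed from the first-series one with an SD of only 0.07 over probesets, against 0.29 for the other), and -0.87 without both lacZ and DDX5 hairpin 3, a choice made after seeing the data. Leaving out arrays in turn gave 1139 to 1438 genes below and 1472 to 1867 above, and at a gap of 0.5 it gave 10 to 16 below and 115 to 158 above, the upper ends without lacZ. At 0.5 the counts were 5 below and 65 above against the 27 others, 16 below for the 12 hairpin arrays alone, and 6 below and 64 above with a pseudocount of 16. A minimum mean of 6 left 11072 genes, with 670 below, 862 above and 27 above by 0.5, and 13 of the 24 named genes. Without both lacZ and DDX5 hairpin 3, 1762 lay below, 26 by 0.5. The median of the genes higher with hairpins than with lacZ turned from -0.38 to 0.75 over 28 arrays, and that of interferon-stimulated genes from 0.17 to -0.12 with the minimum mean. The causes were not tested. All 24 named genes otherwise stayed outside, except 3 against the 27 others. No paired analysis was possible because the result comes from no test and hairpin numbers name different sequences.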
